A study of Saccharomyces cerevisiae with 60 samples.

Results

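The alcohol dehydrogenase genes of budding yeast, Saccharomyces cerevisiae, were followed across 9 strains in medium with copper sulfate and in rich medium. The members are the genes named ADH1, ADH2, ADH3, ADH4, ADH5, ADH6, ADH7 and SFA1 in the platform annotation. All 8 were present with 1 row each, among 5524 genes measured. Expression was measured on 60 arrays of 2 colours from exponentially growing cells. Strains S288C, YPS163, M5, M8, M13, M14, M22, M32 and M34 were each hybridized on 3 replicate arrays with copper sulfate and 3 in rich medium, against a pool of RNA from all 9 strains in the same medium, which made 54 strain arrays. On the other 6 arrays the copper sulfate pool was set against the rich medium pool. The labels give no genotype, copper dose, growth time or ploidy, and do not say whether replicates came from separate cultures, so p-values measure the spread between these arrays, which may be technical. S288C is the common laboratory strain and YPS163 an isolate from oak woodland. Those with M numbers come from vineyards. The labels give no origins, so these are background knowledge.

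Alcohol dehydrogenases interconvert alcohols and aldehydes with NADH or NADPH. In fermenting yeast, pyruvate decarboxylase makes acetaldehyde, and Adh1, the main cytosolic enzyme, reduces it to ethanol and so regenerates NAD+. Adh2 runs mainly the other way and lets the cell use ethanol. Its gene is known for strong repression by glucose and for activation by Adr1 and Cat8 once glucose is gone. Adh3 is the mitochondrial isozyme and Adh5 a minor cytosolic one. ADH4 encodes an enzyme of a separate family and is induced when zinc is scarce. Adh6 and Adh7 are NADPH-dependent enzymes that reduce a broad range of aldehydes. Sfa1 oxidizes the glutathione adduct of formaldehyde and also acts on the alcohols made from amino acids. ADH1 and ADH2 are closely similar in sequence and can share hybridization on arrays, so their separation here is uncertain.

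Values are log2 ratios of the strain to its pool, centred on the median of each array, so they compare 1 gene between strains and give no order of levels between genes. A channel effect, the part of a gene's ratio that follows which channel held the strain and not which strain it was, was removed where values are called adjusted. In the ratios as deposited, before arrays were turned to a common direction, this offset was 0.52 for ADH1, -0.56 for ADH2 and 0.47 for ADH7 on the strain arrays (limma adjusted p = 2.64e-05, 4.17e-07 and 2.44e-07). The offsets on the pool arrays had the same signs, 0.89 for ADH1 (limma adjusted p = 0.0355), -1.06 for ADH2 (limma adjusted p = 0.00326) and 0.38 for ADH7 (limma adjusted p = 0.138). Since the strain arrays were read as channel 1 over channel 2 and the pool arrays as channel 2 over channel 1 (both inferred, as given next), equal signs in the deposited ratios stand for opposite channels in the 2 sets under these readings. Whether the channel numbers in the labels mean the same in both sets was not tested. For the other 5 members the offset on the strain arrays lay between -0.07 and 0.05. All strains were in channel 2 on replicate 1 and in channel 1 on replicates 2 and 3, except M5 in rich medium, which was in channel 2 on replicate 3 too. On the strain arrays the channel effect can therefore hardly be told apart from a difference between replicate 1 and the later replicates.

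Which channel stood on top of the deposited ratios was inferred, since the labels do not say. A pool made of all 9 strains requires linear ratios that average 1 over the strains, and values read as channel 1 over channel 2 came closer to it. Over the 200 rows that varied most, the departure from that average (median absolute log2) was 0.17 with copper sulfate and 0.13 in rich medium. The opposite reading gave 0.39 and 0.36. Of 352 pairs of arrays of different strains with the same channel order, 49 correlated below -0.30 (lowest r -0.60), and 0 did after each spot was corrected by the median of the spots around it (lowest r -0.26). By the pool average this direction is the more likely, but it is not settled. The equal signs of the channel offsets of ADH1, ADH2 and ADH7 in the 2 sets are what 1 shared direction and 1 shared channel bias would give. They were not weighed in this choice. With the sign turned each strain difference below takes the opposite sign at the same size and p, and S288C would be lowest for ADH2. For the pool arrays channel 2 over channel 1 was taken, the opposite of the strain arrays, and this rests on CUP1-1, the copper metallothionein gene, at a mean log2 of 5.87 ± 2.44 (SD, n = 6) for copper sulfate over rich medium.

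ADH2, the ethanol-consuming enzyme, was the member that differed among strains in both media. S288C had the highest mean in each medium, and the spread of strain means was wider than for any other member. In copper sulfate the 3 S288C arrays had adjusted log2 values of 2.45, 1.23 and 1.91. YPS163 had -0.34, 1.46 and 0.16, and M13 had 0.73, 0.35 and 0.64. The 18 arrays of the other 6 strains ran from -0.83 to 0.39, with a median of -0.31. All S288C arrays thus lay above all arrays of the other strains in copper sulfate except 1 YPS163 array, which lay above the lowest S288C array.

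In rich medium the order was much the same at the top. The S288C arrays had adjusted ADH2 values of 0.85, 0.90 and 1.81. The YPS163 arrays had 0.40, 0.25 and 1.27, and so overlapped with S288C. M13 followed at 0.12, -0.51 and 0.60. The other 6 strains ran from -2.04 to 0.40 with a median of -1.16, and all 18 of their arrays lay below all 3 S288C arrays. The lowest strain was M32, at -1.42, -2.04 and -1.36.

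**Figure D1:**
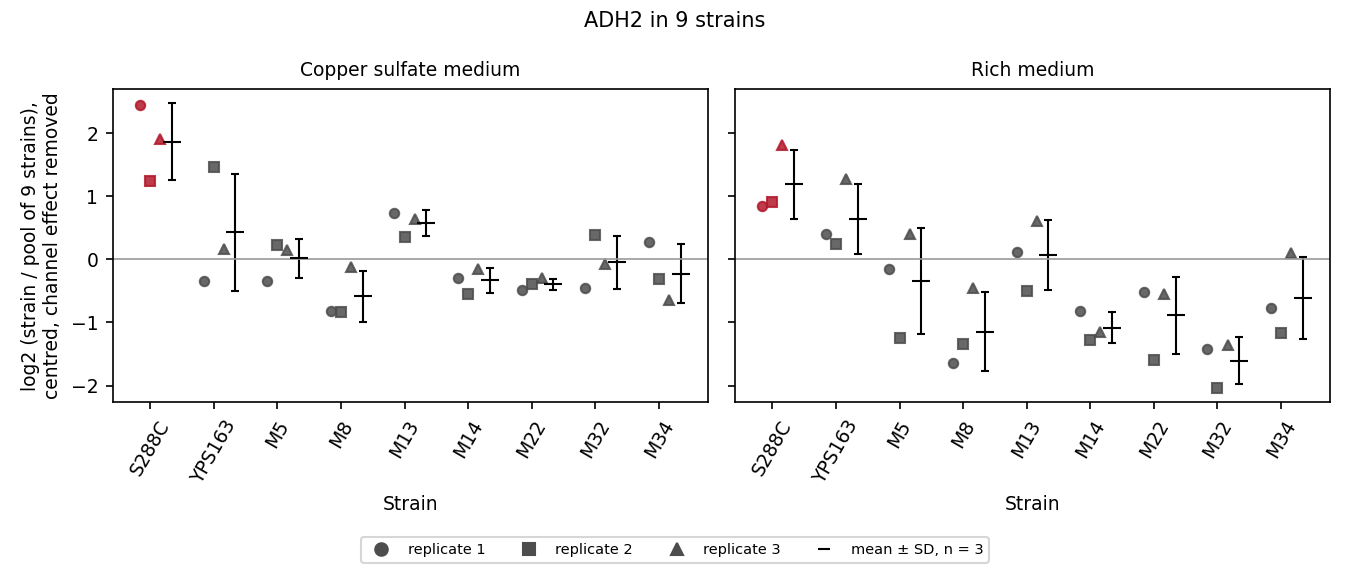
ADH2 in 9 strains in copper sulfate medium (left) and rich medium (right). Points are single arrays (log2 of strain over pool, centred, channel effect removed; shapes give replicate numbers) and bars are mean ± SD of 3 arrays; S288C, in red, has the highest mean in both media, 1.86 and 1.19.

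Over the 3 arrays of each group, ADH2 averaged 1.86 ± 0.61 in S288C, 0.57 ± 0.20 in M13, 0.43 ± 0.93 in YPS163, 0.01 ± 0.31 in M5, -0.05 ± 0.42 in M32, -0.23 ± 0.47 in M34, -0.33 ± 0.20 in M14, -0.40 ± 0.09 in M22 and -0.59 ± 0.41 in M8 with copper sulfate (SD, n = 3 each). The F-test over the 9 strains in copper sulfate gave a range of 2.45 from S288C down to M8, a 5.46-fold difference (limma adjusted p = 0.00314). It was the 1 member of 8 past the threshold of 0.05, where 1.45% of all genes passed. In rich medium it averaged 1.19 ± 0.54 in S288C, 0.64 ± 0.55 in YPS163, 0.07 ± 0.56 in M13, -0.34 ± 0.84 in M5, -0.61 ± 0.64 in M34, -0.89 ± 0.62 in M22, -1.08 ± 0.24 in M14, -1.14 ± 0.62 in M8 and -1.60 ± 0.38 in M32 (SD, n = 3 each). The range there was 2.79, or 6.93-fold (limma adjusted p = 7.15e-05), again the 1 member of 8 past the threshold, against 1.63% of all genes. The copper sulfate call rests on few arrays: it was lost without S288C replicate 1 (range 2.14, limma adjusted p = 0.102), without replicate 1 of every strain (range 2.06, adjusted p = 0.604) and without replicate 3 of every strain (range 2.66, adjusted p = 0.0998). Without a channel effect in the model neither call was made, with limma adjusted p = 0.460 in copper sulfate and 0.0611 in rich medium.

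No neighbours in these orders differed past the threshold in either medium, and in 15 of the 16 neighbouring pairs the arrays overlapped. The exception was S288C over M13 in copper sulfate, where S288C was higher by 1.29 ± 0.42 on the log2 scale (SE, limma adjusted p = 0.350). In rich medium S288C lay above YPS163 by 0.55 ± 0.42 (limma adjusted p = 1.00). Among all 36 pairs of strains, 6 passed in copper sulfate, all of them S288C over M5, M8, M14, M22, M32 or M34, while 0.231% of all pairs and genes passed. In rich medium 6 of 36 passed, where 0.518% of all pairs and genes did: S288C over M8, M14, M22, M32 or M34, and YPS163 over M32. YPS163 exceeded M32 there by 2.24 ± 0.42 (limma adjusted p = 0.00501). The tests of pairs were added after the data had been seen.

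Set against the mean of the other 8 strains, ADH2 in S288C was higher by 1.94 ± 0.32 in copper sulfate, or 3.83-fold (limma adjusted p = 0.000151). In rich medium the difference was 1.81 ± 0.32, or 3.50-fold (limma adjusted p = 0.000281). These were 1 of 72 contrasts of a member in a strain past the threshold in copper sulfate and 1 of 72 in rich medium. Over all genes, 0.286% and 0.245% of such contrasts passed, and 0.941% of genes were higher in S288C in copper sulfate and 0.941% in rich medium. Averaged over both media, an alternative added after the data had been seen, the S288C difference was 1.87 ± 0.22 (limma adjusted p = 7.11e-08), where 1.88% of all genes were called higher in S288C and 0.76% lower. The copper sulfate contrast passed with any single array left out and was lost without replicate 1 of every strain, at 1.57 with limma adjusted p = 0.102. The rich medium contrast was lost without the channel effect, at 1.76 with adjusted p = 0.0605.

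Comparing arrays only within a replicate number and channel order gives the same picture without a fitted channel effect. S288C exceeded the mean of the other strains by 2.66, 1.19 and 1.96 in copper sulfate and by 1.45, 2.02 and 2.03 in rich medium. It was above the mean of the others in 6 of 6 comparisons and the highest strain in 5 of 6. YPS163 was above S288C in copper sulfate replicate 2. For no other member was S288C that far above the other strains: ADH6 was also above in 6 of 6, but by 0.01 to 0.49.

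**Figure D2:**
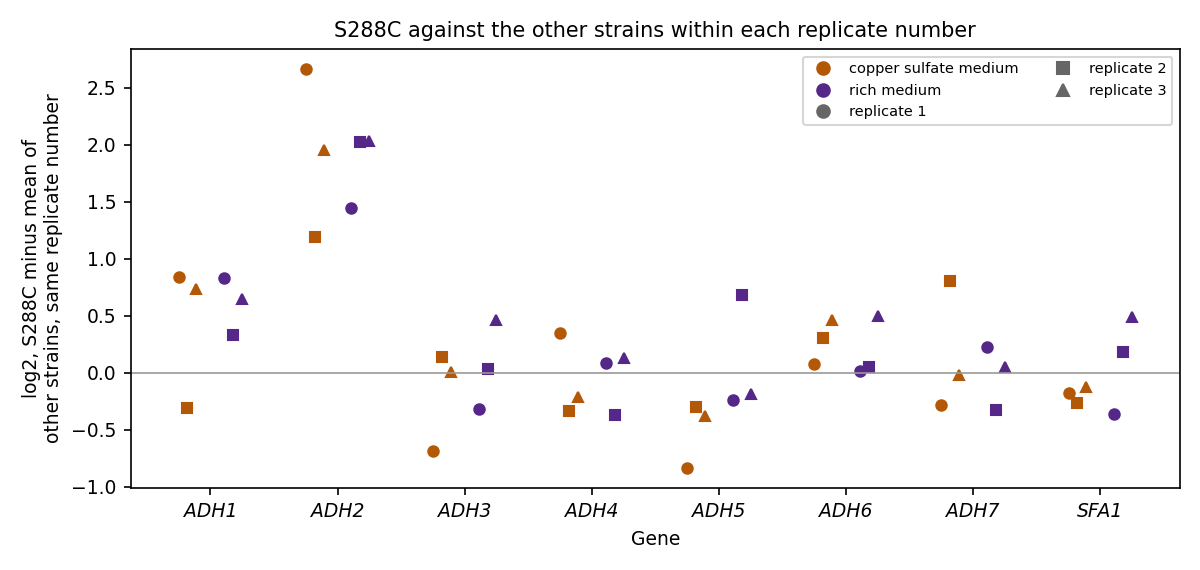
Difference between S288C and the mean of the other strains with the same replicate number and channel order (log2, y axis) for the 8 genes, in copper sulfate medium (orange) and rich medium (purple), 1 point per replicate number. ADH2 lies between 1.19 and 2.66 in all 6 comparisons.

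For ADH2 in the other 8 strains, no contrast passed the threshold with all arrays in the fit and no replicate block. With a replicate block added, YPS163, M32 and M8 were called in rich medium, as given with the alternatives below. The share of all genes called in that setting is not given here. In the M8 contrast in rich medium without the block, 2089 of 5524 genes had an unadjusted p under 0.05 and 8 were called, so a low p there is not particular to ADH2. YPS163 in rich medium was at 1.19 ± 0.32 relative to the other 8 (limma adjusted p = 0.126), and its values within replicate numbers were 0.94, 1.28 and 1.41. M32 in rich medium was at -1.33 ± 0.32 (limma adjusted p = 0.118), and passed without replicate 2 of every strain (limma adjusted p = 0.0212) and without M5 rich replicate 2 (0.0388). M8 was at -0.82 ± 0.32 in copper sulfate and -0.81 ± 0.32 in rich medium (limma adjusted p = 1.00 and 0.0857), and passed in rich medium without M32 rich replicate 2 (limma adjusted p = 0.0482). M13 was above the mean of the other strains in 6 of 6 comparisons within replicate numbers, by 0.20 to 0.73, and its contrasts were 0.49 ± 0.32 and 0.55 ± 0.32 (limma adjusted p = 1.00 each).

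ADH2 kept a similar order of strains in the 2 media. Across the 9 strains, the means in copper sulfate and in rich medium correlated with r = 0.86, where the median over all genes was -0.05 and 98.3% of genes had a lower r. The points are strains that share pools and the layout of arrays, so this is a description. For the other members the same r ran from -0.57 for ADH5 to 0.41 for ADH1. It depended on spot position for several of them: with the median of surrounding spots subtracted, r was 0.90 for ADH2, 0.71 for ADH4, 0.68 for SFA1, 0.64 for ADH6 and 0.62 for ADH7, against -0.32, 0.33, 0.31 and -0.05 for those last 4 without it. Across the 18 strain means, ADH1 and ADH2 had r = -0.03. Since ADH1 did not differ among strains past the threshold, this r cannot tell whether the 2 similar genes share hybridization. The genes most like ADH2 over the 18 means were REE1 (r = 0.81), a regulator of enolase ENO1, XRN1 (r = 0.77), the main cytoplasmic 5′ to 3′ exonuclease, and COS6 (r = 0.77), of a subtelomeric family. With the median of surrounding spots subtracted from each spot, these values were 0.85, 0.73 and 0.73. None of these 3 genes passed the F-test in copper sulfate or in rich medium, with limma adjusted p between 0.231 and 1.00, while COS6 passed over both media (range 1.56, limma adjusted p = 0.0213).

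SFA1, the formaldehyde-detoxifying enzyme, was the other member with a wide spread, with M5 low in both media. In copper sulfate the M5 arrays had adjusted values of -0.74, -0.41 and -1.10. M22, the highest strain, had 0.48, 0.80 and 0.75. In rich medium M5 had -0.86, -1.0 and -0.46, and M34 was lower still at -1.54, -0.82 and -0.69. M32 and M8 were the highest there, at 0.03, 1.10 and 0.18 and at 0.15, 0.54 and 0.44. YPS163 in rich medium had 1.08, -1.23 and 0.31, the widest spread of any SFA1 group (SD 1.17).

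**Figure D3:**
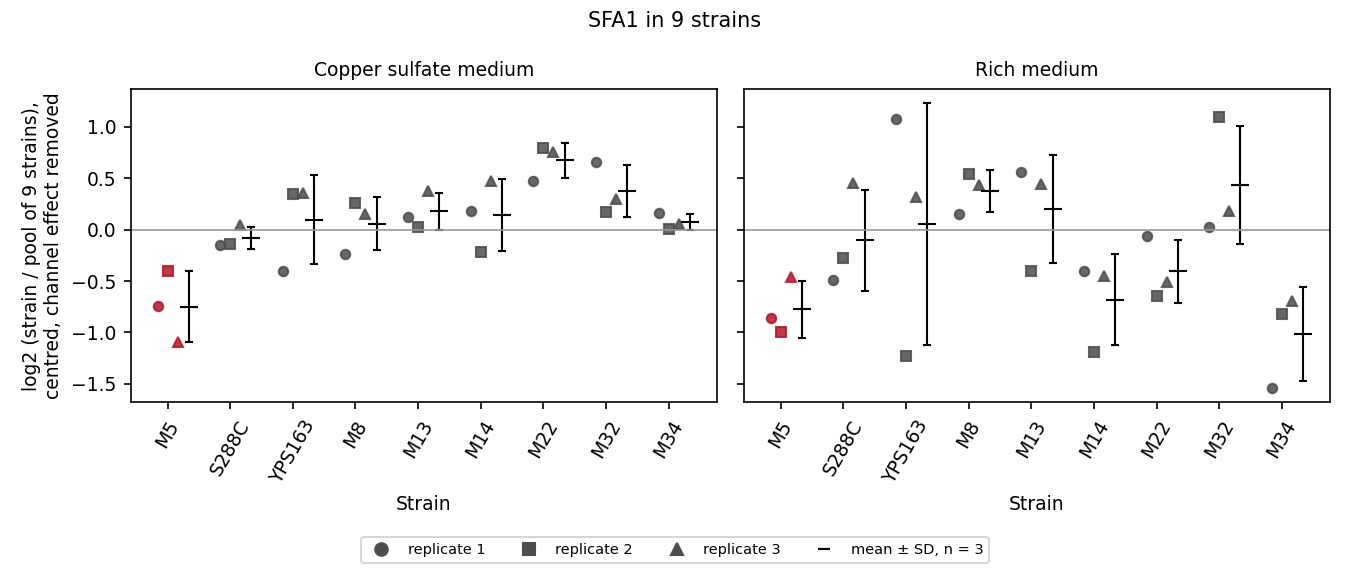
SFA1 in 9 strains in copper sulfate medium (left) and rich medium (right), drawn as for ADH2, with M5 in red. M5 has a mean of -0.75 in copper sulfate, the lowest of 9, and -0.77 in rich medium, where M34 is lower at -1.02.

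The F-test for SFA1 gave a range of 1.42 in copper sulfate (limma adjusted p = 0.80) and 1.45 in rich medium (limma adjusted p = 0.0531), neither past the threshold. Averaged over both media, in the alternative added after the data had been seen, the range was 1.17 from M32 down to M5 and passed (limma adjusted p = 0.0274), as did ADH2, so 2 of 8 members passed where 3.73% of all genes did. The SFA1 call was lost without centring (limma adjusted p = 0.397), without replicate 1 or replicate 3 of every strain (0.479 and 0.630), and without any of 5 single arrays: M32 copper replicate 1 (0.0608), M5 copper replicates 1 and 3 (0.0586 and 0.0924) and M5 rich replicates 1 and 2 (0.0662 and 0.0828). M5 was at -0.79 ± 0.19 relative to the other 8 over both media (limma adjusted p = 0.0448), while 0.181% of all genes were called lower in M5. In single media it was at -0.94 ± 0.27 in copper sulfate (limma adjusted p = 0.441) and -0.63 ± 0.28 in rich medium (limma adjusted p = 0.866). Within replicate numbers M5 lay below the mean of the other strains in 5 of 5 comparisons, by -0.56 to -1.41. The M5 call over both media was lost in 42 of 66 alternatives. It did not hold without M5 copper replicate 1 (limma adjusted p = 0.207), without M5 copper replicate 2 (0.0622), without M5 copper replicate 3 (0.215), without M5 rich replicate 1 (0.186) or without M5 rich replicate 2 (0.189), at -0.69 to -0.87. It was also lost without centring (-0.70, limma adjusted p = 0.702), without the channel effect (0.0504), and without replicate 1 or replicate 3 of every strain (limma adjusted p = 0.252 and 0.732), and leaving out single arrays of other strains took it over the threshold in many cases, to 0.0640 at most. M34 in rich medium was at -0.91 ± 0.27 (limma adjusted p = 0.230). Of all 36 pairs, SFA1 passed in 1, M8 over M34 in rich medium by 1.40 ± 0.36 (limma adjusted p = 0.0244), a pair in which 9.36% of all genes passed.

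ADH1, the main ethanol-producing enzyme, did not differ among strains past the threshold. Its range was 1.14 in copper sulfate and 0.89 in rich medium, in both from S288C down to YPS163 (limma adjusted p = 1.00 and 0.802). S288C had 0.10, -0.76 and 0.75 in copper sulfate, and YPS163 had -1.04, -0.78 and -1.51. In rich medium S288C had 1.04, 0.05 and 0.59, and YPS163 had -0.08, -0.76 and -0.14. These 2 strains are the ends of the observed order, so the pair was picked by its values. Their adjusted arrays did not overlap in either medium, by a narrow margin in both. Before the channel effect was removed, their arrays overlapped in copper sulfate, with S288C replicate 1 at -0.42 and YPS163 replicate 2 at -0.26. In rich medium they did not, with the lowest S288C array at 0.52 and the highest YPS163 array at 0.38. YPS163 lay below the mean of the other strains in 6 of 6 comparisons within replicate numbers, by -0.19 to -1.81. Its contrast over both media was -0.65 ± 0.27 (limma adjusted p = 0.582). ADH1 had a residual SD of 0.65 against a median of 0.47 over all genes, the highest of the 8 members.

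The mitochondrial ADH3 and the minor cytosolic ADH5 did not pass either. ADH3 ranged over 0.79 in copper sulfate and 0.54 in rich medium (limma adjusted p = 1.00 and 0.811). ADH5 ranged over 1.07 and 1.12 (limma adjusted p = 1.00 and 0.609) with a different order in each medium. YPS163 had the highest ADH5 mean in copper sulfate, with arrays at 0.35, 1.48 and 0.09, and was next to lowest in rich medium, with arrays at -1.27, -0.08 and -1.04. The difference between YPS163 and the other 8 strains was thus larger in copper sulfate by 1.41 ± 0.52 (limma adjusted p = 0.348), which did not pass.

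ADH4, the zinc-responsive member, had ranges of 0.52 and 0.69 (limma adjusted p = 1.00 and 0.699). Its YPS163 arrays in rich medium were spread widely, at 0.79, -0.93 and 1.01. The NADPH-dependent ADH6 had the lowest residual SD of the 8, 0.27, and the narrowest range in copper sulfate, 0.45 (limma adjusted p = 1.00). In rich medium it ranged over 0.95 from YPS163 down to M32 (limma adjusted p = 0.412). YPS163 had 0.81, 0.73 and 0.23 there, at 0.66 ± 0.19 above the other 8 (limma adjusted p = 0.25). ADH7, its close relative, ranged over 0.98 and 0.49 (limma adjusted p = 1.00 and 0.945), and its lowest strain in copper sulfate was M32, with arrays at -1.77, -0.84 and -0.08. That M32 difference was -0.70 ± 0.26 (limma adjusted p = 0.471).

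**Figure D4:**
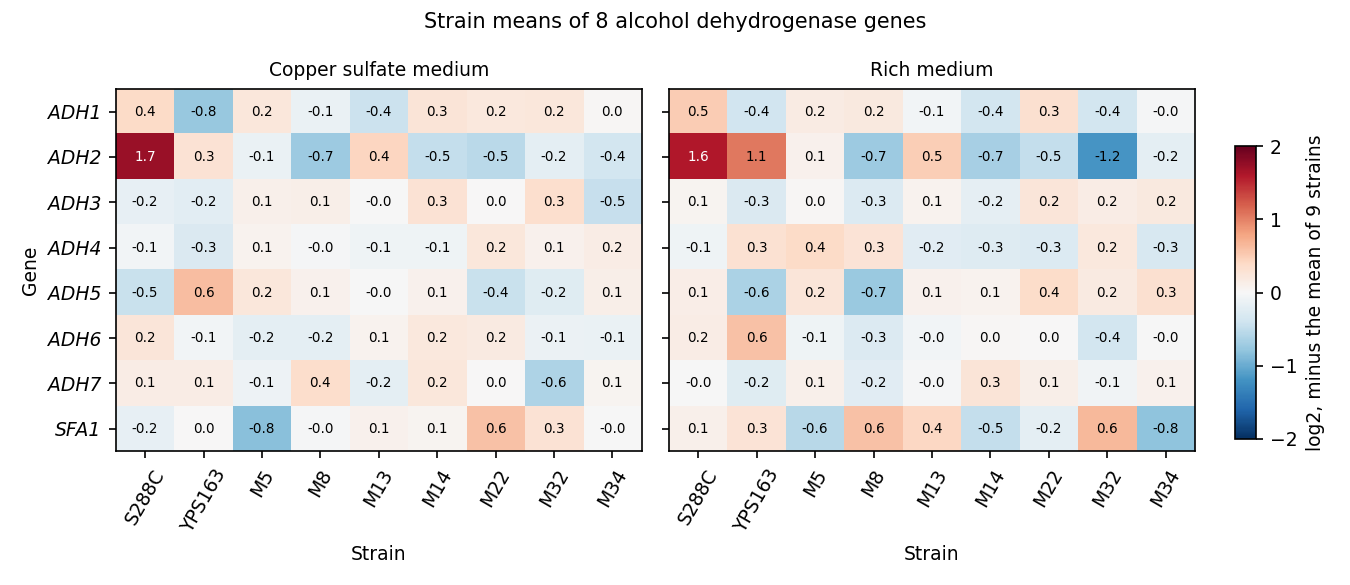
Means of 3 arrays for 8 genes (rows) in 9 strains (columns), in copper sulfate medium (left) and rich medium (right), as log2 adjusted values minus the mean of the 9 strains in that medium. ADH2 in S288C, at 1.7 and 1.6, is the highest cell in both panels, and M5 is low for SFA1 in both.

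Whether strains differed in their response to copper sulfate was tested as the interaction of strain and medium. None of the 8 members passed (limma), where 0.0% of all genes did and 261 genes had an unadjusted p under 0.05. At an unadjusted p under 0.05 there was 1 member, SFA1, with a range of 1.41 from M34 down to M8 (limma adjusted p = 0.873). ADH5 had the widest range, 2.07 from YPS163 down to M22 (limma adjusted p = 0.873), and ADH2 had 1.77 from M32 down to YPS163 (limma adjusted p = 0.873). For the response of single strains, 0 of 72 contrasts passed, where 0.0% over all genes did, and 6 had an unadjusted p under 0.05, where 6.29% over all genes did. As a group the members were close to all genes in the median range over strains, at 0.92 against 0.91 in rich medium and 1.13 against 1.19 for the interaction. In copper sulfate their median was 1.03 against 0.73.

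The pool arrays compare the media directly, averaged over the 9 strains. None of the 8 members passed the test (limma) for copper sulfate over rich medium, where 1.41% of all genes did, 1.18% higher and 0.235% lower. At an unadjusted p under 0.05 there was 1 member of 8, ADH5, and 14.6% of all genes, so a single member is near that share. Its 6 arrays had log2 values of -0.52, 0.18, 0.26, 0.57, 0.66 and 1.53 in ascending order, so 5 of 6 were above 0. The fitted difference was 0.61 ± 0.19, or 1.53-fold, with a 95% interval of 0.20 to 1.02 (limma adjusted p = 0.165). ADH5 also differed by channel, with a mean of 1.10 on the 2 arrays with the copper pool in channel 1 and 0.12 on the 4 with it in channel 2. Its channel offset was -0.49 (limma adjusted p = 0.0939), and the fit gives both channel orders equal weight. ADH4 was below 0 on 6 of 6 arrays, from -0.95 to -0.06, at -0.33 ± 0.17 (95% interval -0.70 to 0.03, limma adjusted p = 0.391).

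ADH1 and ADH2 split by channel on these arrays. With the copper pool in channel 1, ADH2 was at 1.14 and 1.04, and with it in channel 2 at -1.28, -1.82, -0.46 and -0.54. ADH1 was at -0.72 and -1.38 with the copper pool in channel 1, and at 1.99, -0.31, 0.13 and 1.16 with it in channel 2. With the channel effect fitted, the copper difference was 0.03 ± 0.20 for ADH2 (95% interval -0.40 to 0.46, limma adjusted p = 0.95) and -0.15 ± 0.27 for ADH1 (95% interval -0.73 to 0.42, limma adjusted p = 0.809). The other 4 members lay between -0.19 and 0.14, with ADH3 at -0.19 ± 0.17, ADH6 at -0.06 ± 0.16, ADH7 at -0.15 ± 0.17 and SFA1 at 0.14 ± 0.19 (limma adjusted p between 0.622 and 0.874). A p that misses the threshold does not show that a gene kept its level, and the interval of ADH1 reaches down to -0.73.

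**Figure D5:**
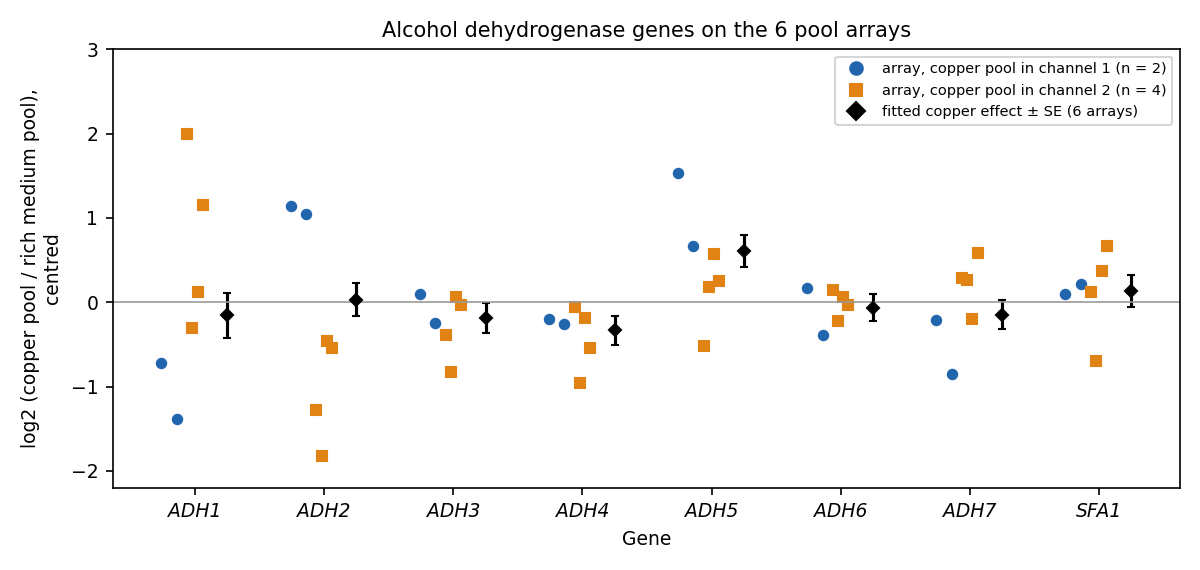
The 8 genes on the 6 pool arrays as log2 of copper pool over rich medium pool, centred. Circles are the 2 arrays with the copper pool in channel 1, squares the 4 with it in channel 2, and diamonds the fitted copper difference ± SE; ADH1 and ADH2 separate by channel, in opposite directions, and ADH5 has the highest fitted value at 0.61.

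Genes of related pathways were counted from lists chosen by function, beside the 1.41% of all genes called in the pools. Of 16 genes on the route from pyruvate to ethanol and acetate, 2 rose with copper sulfate in the pools, 0 fell and 14 did not pass. Both encode aldehyde dehydrogenases: ALD3, cytosolic and stress-induced, was higher by 2.11 ± 0.18 (4.31-fold, limma adjusted p = 6.95e-05), and ALD4, the main mitochondrial enzyme, by 1.04 ± 0.19 (2.06-fold, limma adjusted p = 0.0133). The pyruvate decarboxylase gene PDC1, which feeds Adh1, was at -0.07 ± 0.28 (limma adjusted p = 0.913). Of 14 genes for fusel alcohols and aldehyde reduction, 2 rose and 0 fell: GRE3, an aldose reductase, at 1.43 ± 0.17 (limma adjusted p = 0.000762), and GRE2, a methylglyoxal reductase, at 0.81 ± 0.17 (limma adjusted p = 0.0368). Of 14 other medium-chain dehydrogenases and reductases, 0 passed (limma) and 2 had an unadjusted p under 0.05, with a list median of 0.05 against -0.04 over all genes.

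Of 14 genes regulated by zinc under Zap1, 1 fell in the pools and 0 rose. This was ZRT1, the high-affinity zinc transporter gene, at -1.99 ± 0.30 (limma adjusted p = 0.004), while the list median was -0.23. In the pools 6 of these 14 genes had an unadjusted p under 0.05, where 14.6% of all genes did. The same count was 2 of 16 for pyruvate to ethanol and acetate, and 4 of 14 for fusel alcohols and aldehyde reduction. ZRT1 was also the 1 gene of any list past the F-test in rich medium. The lists held 95 measured genes and 1.63% of all genes passed, so 1 gene is near that share. Its range was 3.65 from M5 down to S288C (limma adjusted p = 0.048). In S288C ZRT1 was lower than in the other 8 strains there by 2.13 (log2 difference -2.13 ± 0.52, limma adjusted p = 0.0214), as 0.127% of all genes were. No gene of any list passed the F-test in copper sulfate (limma), where 1.45% of all genes did. Each list had 0 to 2 genes there at an unadjusted p under 0.05, as 5.9% of all genes had.

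Genes that share the glucose repression of ADH2 were counted in S288C, where 1.25% of all genes were called in copper sulfate and 1.07% in rich medium, so that counts near 0 are what such shares give for a list of this size. Of 22 glucose-repressed genes under Adr1 or Cat8, 0 passed (limma) in S288C in copper sulfate and 0 in rich medium, with 1 and 0 at an unadjusted p under 0.05 and medians of 0.21 and 0.11 against 0.02 and 0.01 over all genes. The activator genes themselves were at 0.47 ± 0.24 for ADR1 and 0.49 ± 0.36 for CAT8 in copper sulfate (limma adjusted p = 1.00 each). In the pools 1 of the 22 fell, CIT3, a mitochondrial citrate and methylcitrate synthase gene, at -0.76 ± 0.17 (limma adjusted p = 0.0445), and 0 rose. There, 6 of the 22 had an unadjusted p under 0.05, where 14.6% of all genes did. Of 16 haploid and mating-type genes, counted because laboratory strains and isolates can differ in ploidy, 0 passed in S288C in either medium (limma), 0 had an unadjusted p under 0.05, and the list had medians of 0.19 in copper sulfate and 0.03 in rich medium. Their part in the ADH2 difference was not tested.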

How the data were processed

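RNA was labelled with Cy3 or Cy5, read on 60 arrays with a GenePix scanner (4000A) and quantified with version 4.0 of its software, and bad spots were marked, per the labels. The deposited values are log2 ratios, and any normalization by the authors is not given in the sources used here. Of 6144 rows with 0 missing values, 5541 had 1 gene, 0 several and 603 none. Matching identifiers to the RefSeq R64 table named 5536 rows, and 5 kept the platform's name. Averaging rows of 17 genes gave 5524 genes. Array medians ran from -0.77 to 1.16. Depth is not defined for arrays, and their number limits the precision.

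Each array was centred on its median and turned to strain over pool or copper sulfate over rich medium. In limma (version 3.58.1, R 4.3.3) the 54 strain arrays had 18 group means and 1 channel effect per gene, with 35 residual degrees of freedom. The 6 pool arrays were fitted separately, also with a channel effect. The p-values of moderated tests and F-tests were adjusted by Benjamini-Hochberg over 5524 genes at 0.05. Tables were handled with pandas 2.3.3 and NumPy 2.4.6 under Python 3.11.15, and figures drawn with matplotlib 3.10.9. The fits were tested on simulated data.

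The members and the lists were chosen with earlier results of these data known. The text names all 8 members, CUP1-1 for the pool direction, the 3 genes most like a member past an F-test, and list genes past the threshold (at most 4 per list). PDC1, ADR1, CAT8, the genes most like ADH1, the chromosomal neighbours of ADH2 and SFA1, and list genes called over both media were named outside this rule after their values were seen. Alternatives were no centring, equal median absolute deviation, a robust empirical Bayes step, a fit with no channel effect, a running median of 15 by 15 spots, centring within 16 blocks of spots, single rows, 1 medium at a time, a replicate block, turned signs and leaving out arrays. Tests over both media, of turned strain arrays and of pairs of strains were added after seeing the data.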

Additional observations from a re-analysis of the deposited data

How the results depend on the processing

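In the pools 0 of 8 members passed under all 15 settings, and in the interaction 0 of 8 under all 67. The F-test in copper sulfate passed 1 member, but 0 without centring (ADH2 adjusted p = 0.108) and 0 without the channel effect, and 2 with equal median absolute deviations or with only the arrays of that medium, SFA1 being added (adjusted p = 0.0190 and 0.0392). Leaving out arrays gave 0 to 1. The F-test in rich medium passed 0 without the channel effect and 2 with equal deviations or the replicate block (SFA1 adjusted p = 0.0187 and 0.0387), and 1 to 2 when arrays were left out. Strain contrasts past the threshold in copper sulfate were 2 with equal deviations or only the arrays of that medium, M5 for SFA1 being added, and 0 to 1 when arrays were left out. In rich medium they were 0 without the channel effect, 5 with the replicate block and 1 to 3 when arrays were left out. For the copper response of single strains, leaving out arrays gave 0 to 1. After group means were removed, pairs of same-numbered arrays had a median r of 0.07 in copper sulfate and 0.13 in rich medium (45 and 58 of 108 pairs over 0.1), and pairs of different numbers -0.06 in both, so the numbers did not pair all arrays. With the replicate block in rich medium, ADH2 was called in YPS163 (1.21, adjusted p = 0.0174), M32 (-1.32, 0.0134) and M8 (-0.80, 0.0311), and the M5 value for SFA1 over both media was not (-0.82, 0.0517). The shares of all genes called in these alternatives are not given here, so the counts of members cannot be set against them. SFA1 over both media lost its F-test call in 8 of 66 alternatives. In the pools, signs of small differences turned. ADH1 was 0.0033 with equal deviations, 0.084 with the running median, 0.097 within blocks, 0.15 without the channel effect and -0.36 to 0.022 with arrays left out. ADH2 was -0.060 with equal deviations, -0.32 without the channel effect and -0.062 to 0.17 with arrays left out. ADH6 was 0.062 without centring and -0.20 to 0.078 with arrays left out, and ADH7 -0.30 to 0.013. Turning all pool arrays gave 0.15 for ADH1, -0.033 for ADH2, 0.19 for ADH3, 0.33 for ADH4, -0.61 for ADH5, 0.062 for ADH6, 0.15 for ADH7 and -0.14 for SFA1. Turning all strain arrays gave, for ADH2, -1.94, -1.81 and -1.87 in S288C in copper sulfate, rich medium and both, -1.19 in YPS163 and 1.33 in M32 in rich medium, and 0.82 and 0.81 in M8. It gave 0.94, 0.63 and 0.79 for SFA1 in M5, 0.91 for SFA1 in M34, -0.66 for ADH6 and -1.41 for the ADH5 response in YPS163, and 0.70 for ADH7 in M32. The cause of these changes was not tested.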

Other observations

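The 3 genes most like ADH1 across the 18 strain means, looked up after its values were seen, were PDC5, a pyruvate decarboxylase gene (r = 0.84), YLR036C (r = 0.80) and ENO2, an enolase gene (r = 0.78). With the median of surrounding spots subtracted from each spot, these were 0.86, 0.60 and 0.81. None of the 3 passed an F-test over strains, with limma adjusted p between 0.607 and 1.00. The means share arrays and pools, so the values are descriptions.

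For the genes next to ADH2 on the chromosome in the R64 table, the differences of means in S288C were smaller than for ADH2. They were computed without an SE or a test. YME2 was at 0.18 in copper sulfate and 0.26 in rich medium relative to the other 8 strains, and UBP15 at 0.32 and 0.11. Next to SFA1, UGX2 was at -0.08 and 0.07 in M5 and NRP1 at -0.43 and -0.51, where SFA1 itself was at -0.94 and -0.63. Whether neighbouring genes vary together was not tested.

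Over both media, an alternative added after the data had been seen, S288C was called higher for ETR1, an enoyl reductase of the medium-chain family, at 0.83 ± 0.22 (limma adjusted p = 0.0185), and for ARO8, an aromatic aminotransferase gene, at 0.69 ± 0.19 (limma adjusted p = 0.0335). It was called lower for ZRT1, at -1.90 ± 0.37 (limma adjusted p = 0.00055), and for ACS2, the acetyl-CoA synthetase gene used on glucose, at -0.79 ± 0.17 (limma adjusted p = 0.00229). The lists held 95 measured genes, and 1.88% of all genes were called higher in S288C and 0.76% lower. Among the 9 strains over both media, GUT2, of glycerol use, had a range of 1.80 from M13 down to M8 (limma adjusted p = 0.0156), and ARO10, a decarboxylase gene for fusel alcohols, 1.23 from S288C down to M5 (limma adjusted p = 0.0479). ZRT1 had a range of 2.77 from M5 down to S288C (limma adjusted p = 0.000675), and ACS2 1.08 from M22 down to S288C (limma adjusted p = 0.0445). By list this was 1 of 16 for pyruvate to ethanol and acetate, 1 of 22 glucose-repressed genes, 1 of 14 for zinc and 1 of 14 for fusel alcohols. It was 0 of 14 other medium-chain genes and 0 of 16 haploid and mating-type genes. Over all genes 3.73% passed this test, so the list genes together were near that share.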
